A study of Rattus norvegicus with 6 samples.

Results

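In the livers of carcinogen-treated rats, 164 gene IDs stood at least 2-fold above control and were at no more than 0.5 times that raised level when N-acetylcysteine (NAC) was given with the carcinogens. These members were chosen by their own levels in all 6 libraries. An ID entered with a mean of at least 0.5 CPM in control (CPM, reads of an ID per fixed number of library reads after TMM scaling), at least 5 CPM in the HCC group and at least 2 times the control mean there, with a mean in the HCC/NAC group of at most 0.5 times the HCC mean, and with both HCC libraries above all 4 other libraries. The members were 0.971% of the 16898 IDs with enough counts to test and came from 43360 IDs in the count tables. Because the rule used these levels, the rise in HCC and the lower level with NAC are given as a description of the members and not as a finding.

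Poly(A) RNA was sequenced from livers of male rats of the inbred Fischer-344 strain, taken after 16 weeks. Control rats received 0.5% carboxymethyl cellulose by mouth, the vehicle. The HCC group received diethylnitrosamine (DEN, 50 mg/kg, weekly injection into the abdominal cavity) and then 2-acetylaminofluorene (2-AAF, 25 mg/kg by mouth), a pair of carcinogens used to induce hepatocellular carcinoma (HCC). In the HCC/NAC group the same carcinogens were given together with daily NAC at 300 mg/kg by mouth. The series had no group on NAC alone, so the members' response to NAC without carcinogens was not analysed here. The 18 rats formed 3 groups. In each group, RNA from 5 animals was pooled to give 2 libraries, and the labels do not say whether both libraries of a group share animals. Each p-value below therefore rests on the spread between pools of the same group, part of which may be technical. The 3 groups shared an estimate of this spread, except where only 2 groups were fitted. No value belongs to a single rat. The label text calls the animals mice, whereas the organism field and the design text name the rat.

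DEN is activated by cytochrome P450 enzymes of the hepatocyte to a species that alkylates DNA, and 2-AAF is converted by N-hydroxylation and conjugation to DNA-binding esters. Together they give rise to altered foci, nodules and carcinomas on a background of cell death, regeneration and fibrosis. NAC is deacetylated to cysteine, the amino acid that limits glutathione synthesis. Glutathione is the main soluble thiol of the liver, conjugates electrophiles and is the substrate of glutathione peroxidases. The KEAP1/NRF2 pathway named in the series title senses electrophiles through cysteines of KEAP1 and induces glutathione and detoxification genes. Liver RNA averages hepatocytes, nodule cells, bile duct cells, endothelium, stellate cells and leukocytes, so a lower level with NAC may reflect fewer cells of a type or less RNA per cell, and these cannot be told apart.

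The count tables list Ensembl rat gene IDs alone, and 0 of the 43360 IDs could be paired with a symbol here. The members' functions, their promoters, and liver and cell type markers were therefore not analysed here. The members are described by their levels, and 4 are named by ID: the 2 with the largest ratio of HCC to the higher of the other group means, and the members furthest above and furthest below control with NAC.

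As a group the members carried few reads in control liver and several times more in HCC. Their summed level was 1593 and 1591 CPM in the control libraries, 8889 and 8710 CPM in the HCC libraries and 3449 and 3295 CPM in the HCC/NAC libraries. The sums of the 3 groups did not overlap, with control lowest and HCC highest. The means were 1592 ± 1.5, 8799 ± 126 and 3372 ± 109 CPM (SD, n = 2 each). The sum was thus 5.53-fold above control in HCC and 2.12-fold above control in HCC/NAC. Control replicate 1 was above replicate 2 in 75 of the 164 members, so opposite differences partly cancel in the sum. Its SD of 1.5 CPM therefore does not show the spread of single members, whose control replicates differed by a median of 1.31-fold. The 4 members with the highest counts held 33.0% and 33.1% of the sum in the HCC libraries, and without them the sums were 1290 and 1305 CPM in control, 5953 and 5831 CPM in HCC and 2311 and 2200 CPM in HCC/NAC. The rule sets HCC as the highest group for any subset of members, so these sums show only how much of the level the 4 members held. The median member moved in the same order, with 3.19 and 3.44 CPM in control, 16.4 and 16.1 CPM in HCC and 6.40 and 6.45 CPM in HCC/NAC. CPM values are not corrected for gene length, so they rank members by reads and not by transcript number.

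**Figure D1:**
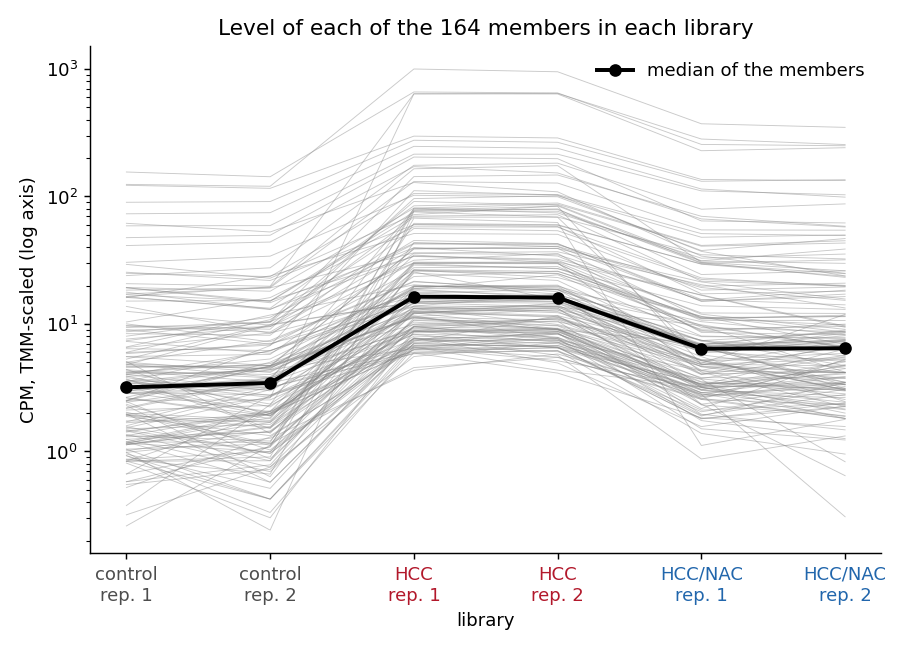
Each thin line is 1 of the 164 members across the 6 libraries, on a log axis of TMM-scaled CPM, and the thick line joins the median member of each library. The median is near 3 CPM in both control libraries, near 16 CPM in both HCC libraries and near 6 CPM in both HCC/NAC libraries, and single members span from under 1 CPM to 999.4 CPM.

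The members covered a wide range of levels. Mean HCC levels ran from 5.01 to 974.9 CPM with a median of 16.2, mean control levels from 0.537 to 149.2 CPM with a median of 3.29, and mean HCC/NAC levels from 1.10 to 359.9 CPM with a median of 6.27. In HCC, 46 members lay between 5 and 10 CPM, 80 between 10 and 50 CPM, 29 between 50 and 200 CPM and 9 at 200 CPM or more. The member with the most reads had 124.4 and 120.2 CPM in control, 999.4 and 950.4 CPM in HCC and 371.6 and 348.3 CPM in HCC/NAC. Its HCC/NAC libraries lay between the control and HCC libraries and overlapped with neither. The member of the next rank had 155.5 and 142.8 CPM in control, 659.9 and 648.8 CPM in HCC and 255.9 and 250.0 CPM in HCC/NAC, again an intermediate level with NAC. The fourth in rank had 20.7 and 19.8 CPM in control, 637.8 and 636.4 CPM in HCC and 228.4 and 241.2 CPM in HCC/NAC, which left it 11.6-fold above control.

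The rise in HCC, which the rule set at 2-fold or more, had a median of 4.82-fold over the members and reached 280.7-fold. It was between 2 and 4-fold in 59 members, between 4 and 8-fold in another 59, between 8 and 20-fold in 34 and 20-fold or more in 12. All 164 members were called higher in HCC than in control (edgeR's quasi-likelihood test, Benjamini-Hochberg adjusted p under 0.05 over all tested IDs), beside 17% of all tested IDs called in that direction. Since the rule used this contrast, nothing is read from the count. The members' median log2 fold change was 2.27, with a median standard error of 0.26, and that of all tested IDs was 0.05.

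With NAC, the level was lower than in HCC by a median of 2.53-fold, with quartiles of 2.23 and 3.10-fold, and by 44.9-fold at the extreme. Of the members, 156 were called lower in HCC/NAC than in HCC, beside 16.5% of all tested IDs; this contrast too was used by the rule. The other 8 had edgeR adjusted p-values from 0.051 to 0.124 and mean HCC levels from 5.01 to 16.1 CPM. In 4 of them the HCC/NAC libraries lay more than 1.5-fold apart. The control libraries, which enter the shared estimate of spread, lay more than 2-fold apart in most of the 8, beside 21 of all 164 members. Whether this spread bears on the missing calls was not tested. The median log2 fold change against HCC was -1.34 over the members and -0.05 over all tested IDs.

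The factor by which NAC livers lay below HCC livers was similar over the range of the rise. Its median was 2.42 among members raised 2 to 4-fold, 2.54 among those raised 4 to 8-fold, 2.54 among those raised 8 to 20-fold and 2.69 among the 12 raised 20-fold or more. The rule holds this factor at 2 or more in every bin, and in most members the HCC/NAC mean was between 0.3 and 0.5 times the HCC mean. Mean HCC/NAC was above 0.4 and up to 0.5 times mean HCC in 76 members, above 0.3 and up to 0.4 times in 60, above 0.2 and up to 0.3 times in 14, above 0.1 and up to 0.2 times in 10, and at 0.1 times or less in 4.

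The limit at 0.5 did not fall in a gap of the data. Among all tested IDs, 880 met the conditions on control and HCC whatever their level with NAC, and the members were 18.6% of these. The other 716 raised IDs had a median ratio of HCC/NAC to HCC of 0.83. In 498 of them the HCC/NAC mean was below the HCC mean, and in 218 it was at or above it. Just outside the limit, 113 raised IDs had a ratio above 0.5 and up to 0.6. The members are thus the low end of a continuous distribution whose median, over all 880 raised IDs, was 0.74.

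**Figure D2:**
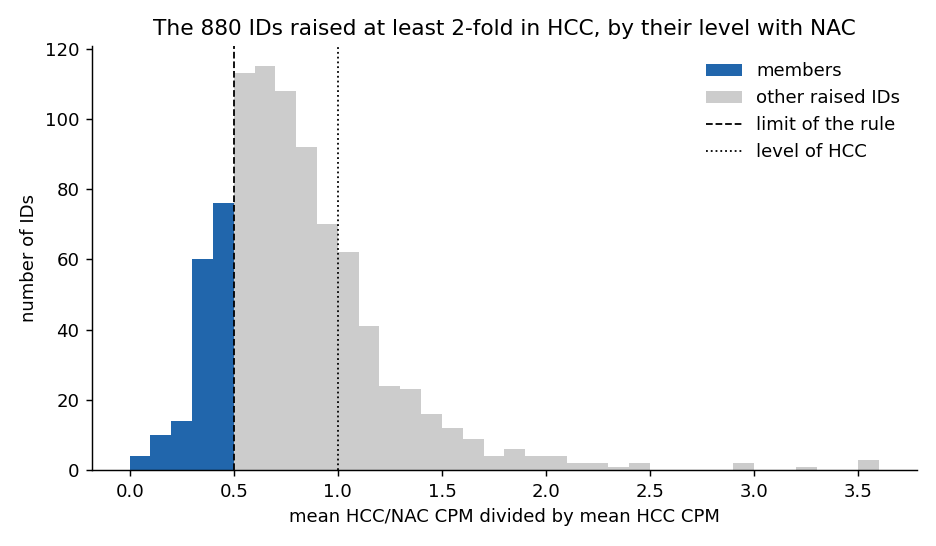
The 880 IDs raised at least 2-fold in HCC, counted by mean HCC/NAC CPM divided by mean HCC CPM in steps of 0.1, with the 164 members in blue, the other 716 in grey, the limit of the rule as a dashed line and the HCC level as a dotted line. The bars rise from 4 IDs at 0.1 or less to 76 just inside the limit and 113 just outside it, without a gap.

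IDs near each limit had the following values. For the rise over control, the closest members had ratios of 2.01, 2.01 and 2.02, and the closest IDs left out had 1.95, 1.94 and 1.92. For the ratio of HCC/NAC to HCC, the 3 members just inside rounded to 0.500, 0.500 and 0.499, and the 3 IDs just outside had 0.501, 0.502 and 0.505. The lowest HCC means inside were 5.01, 5.01 and 5.07 CPM and the highest outside were 4.83, 4.80 and 4.80 CPM. For the control level, 0.537, 0.556 and 0.613 CPM lay inside, while 0.4997, 0.498 and 0.490 CPM lay outside. In all, 39 IDs met every condition but had a control mean under 0.5 CPM. With the groups exchanged in the same thresholds, 608 IDs had control as the high group and 269 had HCC/NAC as the high group.

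No threshold of the rule set HCC/NAC against control, although both were held at or below 0.5 times HCC. The libraries of both groups also took part in choosing the members, so the counts of HCC/NAC against control are a description. In that comparison 95 members (57.9%) were called higher in HCC/NAC than in control, 8 (4.88%) were called lower and 61 had no call. Over all tested IDs 21.3% were called higher and 24.9% lower. The members' median log2 fold change was 0.84, with a median standard error of 0.27, beside 0.05 for all tested IDs. By libraries alone, both HCC/NAC libraries lay above both control libraries in 105 members, beside 35.1% of all tested IDs, and below both in 14, beside 35%. In the other 45 the libraries of the 2 groups overlapped. Of the 716 other raised IDs, 655 (91.5%) were called higher than control and 0 lower, but they differ from the members by the rule's limit on HCC/NAC itself, so this difference was not tested.

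How much of the rise was left with NAC differed widely between members. The share kept was computed as the HCC/NAC mean minus the control mean, over the HCC mean minus the control mean. Its median was 21.7%, with quartiles of 3.85% and 32.1%, and it ran from -52.6% to 49.4%. In 51 members over 30% of the rise was kept, in 58 between 10% and 30%, in 25 between 0% and 10%, and in 30 the HCC/NAC mean was at or below the control mean. For the summed level of the members, bounded by the rule in the same way, the share kept was 24.7%.

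**Figure D3:**
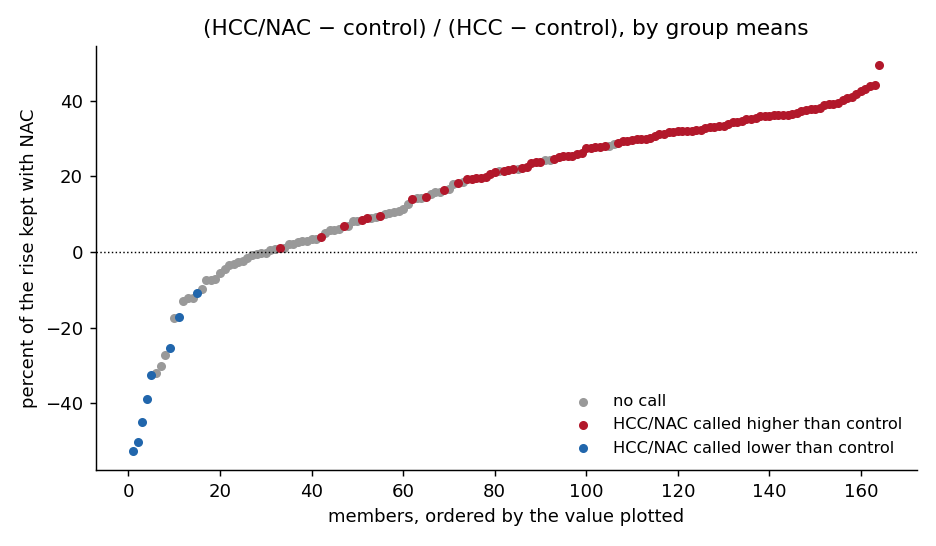
The 164 members ordered by the percent of their rise kept with NAC, from group means, coloured by their call in HCC/NAC against control. The values run from -52.6% to 49.4%, the 8 members called lower lie below 0, and the 95 called higher lie above it.

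The share kept followed the size of the rise, as the rule's geometry allows. With NAC, a member raised 2-fold must lie at control or below. A member raised 20-fold may lie up to 10-fold above control. Among the 59 members raised 2 to 4-fold, the median share kept was 0.721%, and 11 were called higher than control, 7 lower and 41 neither. Among the 59 raised 4 to 8-fold the median was 25.4%, with 40 called higher and 1 lower. Among the 34 raised 8 to 20-fold it was 33.2%, with 32 called higher, and among the 12 raised 20-fold or more it was 35.0%, with all 12 called higher. Of the 46 members raised 8-fold or more, 44 were called above control with NAC and 0 below it. Beside these, 21.3% of all tested IDs and 91.5% of the other raised IDs were called higher. Both the rise and the comparison with control use the control libraries, so the counts by rise are a description.

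**Figure D4:**
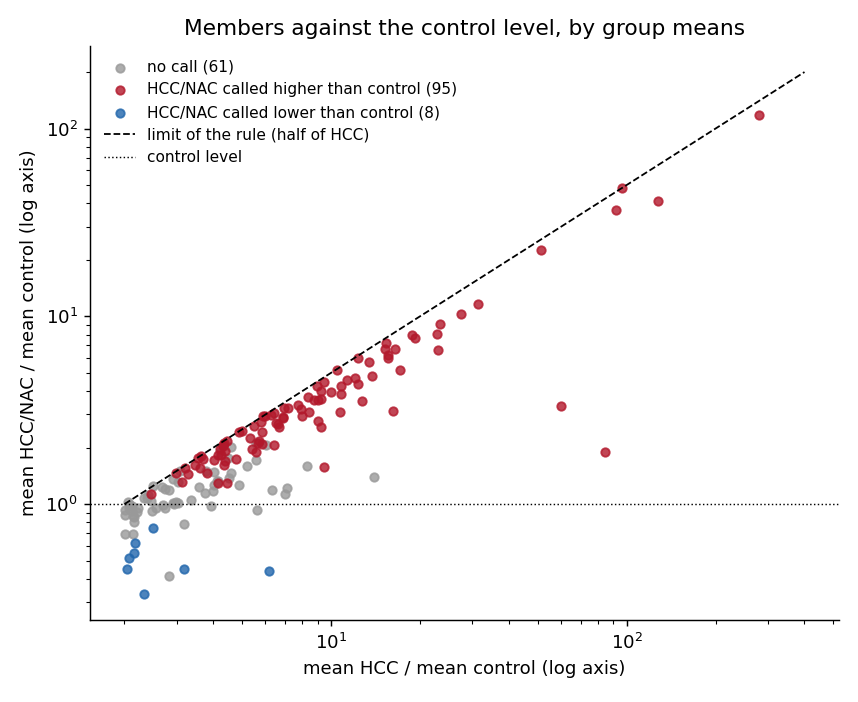
Each point is 1 member, with mean HCC over mean control on the horizontal log axis and mean HCC/NAC over mean control on the vertical log axis; the dashed line is the limit of the rule, the dotted line is the control level, and both axes share the control means. Most members lie near the dashed line, the 4 members at 0.1 times HCC or less, with rises of 6.16, 14.0, 60.0 and 84.9-fold, lie furthest below it, and the 8 called lower than control lie at rises of 2.04 to 6.16-fold.

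The member with the largest gap between HCC and the other groups kept little of its rise with NAC. ENSRNOG00000020369 had 0.869 and 0.664 CPM in control (30 and 22 counts), 67.6 and 62.5 CPM in HCC and 1.11 and 1.78 CPM in HCC/NAC. It was 84.9-fold above control in HCC. In HCC/NAC it was 44.9-fold below HCC and 1.89-fold above control by group means, and 1.06% of the rise was kept. The HCC/NAC libraries still lay above both control libraries. The log2 fold change of HCC/NAC against control was 0.91 ± 0.28 (SE; edgeR adjusted p = 0.020), a call that was lost without control replicate 2 (edgeR adjusted p = 0.081), without HCC/NAC replicate 2 (edgeR adjusted p = 0.193) and with only these 2 groups in the fit (edgeR adjusted p = 0.436). Its low level with NAC is a description, since its level in each group chose it.

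ENSRNOG00000004692 had the next largest gap. It had 0.376 and 2.33 CPM in control, 78.4 and 83.6 CPM in HCC and 4.82 and 4.15 CPM in HCC/NAC. The control libraries, with 13 and 77 counts, lay far apart, whereas the HCC and HCC/NAC pairs were each close. Its HCC/NAC mean was 18.1-fold below HCC, and 3.94% of the rise was kept. Against control the log2 fold change was 1.75 ± 0.43 (SE; edgeR adjusted p = 0.0058). It was 0.93 without control replicate 1 and 3.64 without control replicate 2, and the call was lost with only these 2 groups in the fit (edgeR adjusted p = 0.062) and with DESeq2 (adjusted p = 0.097).

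At the other extreme, ENSRNOG00000027433 stayed furthest above control. Control libraries had 1.94 and 2.63 CPM, HCC libraries 638.2 and 643.7 CPM and HCC/NAC libraries 282.2 and 255.3 CPM. The libraries of the 3 groups did not overlap, with HCC/NAC between control and HCC. The rise was 280.7-fold, the largest among the members, and 41.7% of it was kept. The log2 fold change of HCC/NAC against control was 6.88 ± 0.10 (SE), given as a description because this difference chose the member.

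With NAC, 8 members were called below control. Their HCC/NAC means were 0.331 to 0.745 times control, with log2 fold changes from -1.59 to -0.43 and edgeR adjusted p-values from 0.00015 to 0.011. In all 8 both HCC/NAC libraries lay below both control libraries. The lowest was ENSRNOG00000003134, with 3.88 and 4.38 CPM in control, 11.6 and 7.66 CPM in HCC and 1.51 and 1.23 CPM in HCC/NAC. Its log2 fold change against control was -1.59 ± 0.32 (SE), likewise a description, since it was named for being furthest below control. Its HCC libraries were further apart than those of most members.

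**Figure D5:**
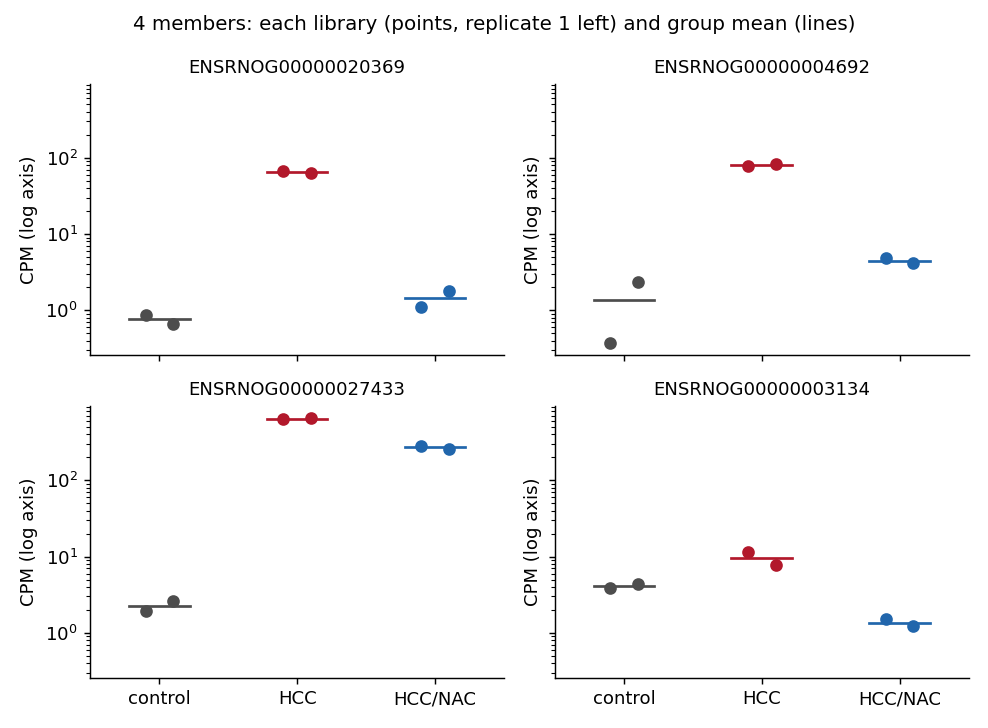
CPM on a shared log axis for the 4 members named by ID, with 1 point per library (replicate 1 on the left) and a line at each group mean. With NAC the first pair lies at a few CPM or less, ENSRNOG00000027433 lies above 250 CPM, and ENSRNOG00000003134 lies below its control libraries.

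A second member of these 8 rose more strongly. It had 12.6 and 9.78 CPM in control, 69.0 and 68.7 CPM in HCC and 5.72 and 4.15 CPM in HCC/NAC, so that a 6.16-fold rise was replaced by a level below control (log2 fold change -1.18). The member of the 8 with the most reads had 61.6 and 52.7 CPM in control, 128.6 and 108.7 CPM in HCC and 34.1 and 25.0 CPM in HCC/NAC (log2 fold change -0.95). The other 5 had mean control levels of 6.22 to 23.7 CPM, with log2 fold changes from -1.16 to -0.43. Without HCC/NAC replicate 1, 13 members were called lower in place of 8, among them all 8.

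The 61 members with no call against control were mostly of low level. Their median HCC level was 10.2 CPM, beside 24.8 CPM for those called higher. For 51 of them the fitted difference was under 1.5-fold, for 6 it was between 1.5 and 2-fold and for 4 it was 2-fold or more. The missing call does not show that these members were back at the control level. Of the 46 members between 5 and 10 CPM in HCC, 17 were called higher than control with NAC and 28 had no call. Of the 38 at 50 CPM or more, 33 were called higher, 3 lower and 2 had no call. The same split over all tested IDs was not analysed here, so the difference is not read as particular to the members.

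Total counts ranged from 33917707 to 37717373 per library. The members had at least 165 counts in each HCC library. Their lowest counts were 9 and 8 in the control libraries and 29 and 10 in the HCC/NAC libraries, and 15 members fell under 20 counts in at least 1 library. The replicates differed by a median of 1.31-fold in control, 1.07-fold in HCC and 1.24-fold in HCC/NAC, and lay more than 2-fold apart in 21, 0 and 9 members. Low counts were unevenly present over the libraries as a whole: IDs with 1 to 5 counts numbered 336 and 3271 in control, 2847 and 3364 in HCC, and 632 and 708 in HCC/NAC. Whether this bears on the members of low level was not tested. The 46 members under 10 CPM in HCC summed to 86.1 and 87.1 CPM in control and to 348.1 and 336.6 CPM in HCC. In HCC/NAC they summed to 127.9 and 129.5 CPM. These sums do not decide the question, since the rule itself required a control mean of at least 0.5 CPM.

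The size of the group depended on how the libraries were scaled. TMM factors were 0.92 and 0.91 in control, 1.19 and 1.18 in HCC and 0.92 and 0.92 in HCC/NAC, which lowers HCC levels against both other groups. With library totals alone, a setting added once the data had been seen, 483 IDs met the rule, 163 of them members, and the median log2 fold change of all tested IDs between HCC/NAC and HCC moved from -0.05 to -0.42. RLE and upper-quartile scaling gave 146 and 152 IDs, with 146 and 147 of them members. File names of the control libraries start differently from those of the HCC and HCC/NAC libraries, which share a prefix. The prefix is not explained, and if it marks a batch, batch and carcinogens cannot be told apart.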

How the data were processed

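Per the labels' protocols, each group's 2 poly(A) libraries came from pooled RNA of 5 animals. The submitters' processing notes name FastQC, STAR, featureCounts and edgeR without versions. Genome build, annotation and strand setting: not given in the sources used here. Each deposited file lists the authors' unnormalized count for every Ensembl gene ID. The reference table of 47357 rat genes held 0 Ensembl IDs, so gene lists, markers and RefSeq promoters were not used, and IDs were named by the rule stated in the report. Counts were filtered with filterByExpr and scaled by TMM in edgeR 4.0.16 (R 4.3.3). A quasi-likelihood model of all 6 libraries (glmQLFit, 3 residual degrees of freedom) gave the 3 comparisons, with Benjamini-Hochberg adjustment over 16898 IDs and calls at 0.05. Standard errors came from the F statistic. The fit and the rule were also run on simulated counts in which all IDs but those set to change had equal group means. That run does not test the rule near its limits, nor with as many IDs changed as were called here. Its outcome is not given and nothing is drawn from it. The members and comparisons were chosen with earlier results of these data known. Alternatives were other scalings, filters, DESeq2 1.42.0, a replicate block, fits of 2 groups, other thresholds and leaving out each library. Replicates differed beyond counting noise in each group (chi-square per degree of freedom of 5.22 or more).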

Additional observations from a re-analysis of the deposited data

How the results depend on the processing

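Of 70 alternative values of the 5 counts of members, 66 lay within 1.5 times of the reported count. Among the 5, 2 are calls in the contrasts that the rule used. All 14 alternatives of each lay within this limit, which the selection largely fixed, so they show little. The number of IDs meeting the rule lay within it in 11 of 14 alternatives. The number called higher than control did so in 14 and the number called lower in 13. By the rule, 531 IDs qualified at 1.5-fold on both sides, 35 at 3-fold and 483 with library totals alone. Leaving out 1 library in turn, 6 to 13 members were called lower than control with NAC in place of 8. Those called higher numbered 75 to 98 over all alternatives, 75 with only the 2 groups in the fit. Of the members, 109 met the rule in all 6 selections without 1 library and 145 under both RLE and upper-quartile scaling. With the replicate number as a block, 94 members were higher and 9 lower than control; libraries of the same number did not deviate together (r = -0.01, 0.01 and 0.00 over IDs), so the numbers are not taken as pairs. The 4 named IDs, 2 of them chosen for this difference, kept their direction against control in all 56 alternative values, and 5 of these lost the call. The effect of depth on calls was not tested.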
